A study of Mus musculus with 74 samples.

Results

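Lung tumours in which the ubiquitin ligase gene Rnf43 was targeted were followed beside each of its partner genes in a pooled screen with pairs of guide RNAs. A tumour was a member when 1 of its 2 guides was directed against Rnf43 and the other was inert, directed against another gene, or the other of the 2 Rnf43 guides (V1 and V2). Tumours with the same guide in both places, or with the guide named NE, were left out. This gave 56855 of the 378754 tumours listed, of which 19195 came from H11-Cas9 mice, 7537 from H11-LSL-Cas9 mice and 30123 from KT mice.

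All 74 mice shared the background called KT, which includes R26LSL-Tomato, a red reporter that the Cre of the virus switches on. Cas9 came from the H11-Cas9 allele in 45 of them and from H11-LSL-Cas9 in 20, where a stop cassette keeps it off until Cre acts, while 9 KT mice had no Cas9 and so could not cut at any guide. Tumours were started with a pool of viruses called Lenti-U6BC-sgDbl/Cre, each with Cre, a barcode and both guides, and lungs were taken after about 3 months. The growth protocol spells both Cas9 strains with the LSL allele, so the mice were grouped by the genotype given for each one. The labels give neither age nor viral dose. A guide pair says what was targeted, since neither cutting at Rnf43 nor its protein was measured in these files. Cre acted in whichever lung cells the virus entered, and each barcode was counted as 1 tumour in bulk lung DNA.

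RNF43 is a membrane E3 ubiquitin ligase that marks Frizzled receptors for removal from the cell surface, and it thereby holds down the response of a cell to Wnt ligands. R-spondins relieve this brake by clearing RNF43 and its relative ZNRF3 from the membrane. In the lung, Wnt signals help maintain alveolar type II cells, from which many lung tumours of mice arise. Among the partners in the pool, Apc acts in the same pathway further inside the cell, as a scaffold of the complex that destroys β-catenin.

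The mice differed widely in tumour number and depth. An H11-Cas9 mouse held 1013 to 5364 tumours, an H11-LSL-Cas9 mouse 4 to 4941 and a KT mouse 13191 to 41166. The median number of cells that 1 read stood for was 7.96 in H11-Cas9, 12.9 in H11-LSL-Cas9 and 4.82 in KT. The smallest tumour listed in a mouse had 50.1 to 105 cells in H11-Cas9, 50.4 to 369 in H11-LSL-Cas9 and 50.4 to 56.2 in KT, so the floor differed between mice. Rnf43 with an inert guide was read in 2537 tumours of H11-Cas9, 900 of H11-LSL-Cas9 and 3674 of KT mice. Tumours with 2 inert guides (inert/inert) numbered 1107 in H11-Cas9, 400 in H11-LSL-Cas9 and 1466 in KT mice. The authors' spike-in total was near 100000 cells in 25 H11-Cas9 and 5 KT mice, and near 300000 cells in 20 H11-Cas9, 20 H11-LSL-Cas9 and 4 KT mice. It was treated as a possible batch. Mouse names begin with HC or MT in every H11-LSL-Cas9 mouse and in no other, so that whatever these letters mark cannot be told apart from that genotype. The names of all 5 KT mice near 100000 cells begin with SL, which no Cas9 mouse has. Near that total, a difference from KT therefore cannot be told apart from whatever SL marks.

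The first question was whether tumours with Rnf43 targeted alone differed in size from inert/inert tumours. In H11-Cas9 mice they were slightly larger. The difference in mean log2 cells within a mouse, Rnf43 with inert minus inert/inert, ran from -0.64 in the lowest mouse over a median of 0.12 to 1.03 in the highest, and it was above 0 in 31 of 45 mice. In H11-LSL-Cas9 mice it ran from -0.54 over -0.07 to 0.34 and was above 0 in 8 of 17 mice, and in KT mice it ran from -0.34 over 0.17 to 0.30 and was above 0 in 5 of 9. The 3 groups therefore overlapped over most of their range. The mean was 0.15 ± 0.05 in H11-Cas9 (SE, n = 45 mice, sign-flip permutation, Benjamini-Hochberg adjusted p = 0.00895), a fold of 1.11, with geometric mean sizes of 208 cells for Rnf43 with inert and 188 cells for inert/inert. It was -0.04 ± 0.07 in H11-LSL-Cas9 (n = 17, adjusted p = 0.839) and 0.05 ± 0.07 in KT (n = 9, exact sign flips, adjusted p = 0.863). Beside an inert guide 64.7% of the 17 genes tested passed as larger in H11-Cas9, with a median of 0.21 over all of them, so a call here is no rare result.

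**Figure D1:**
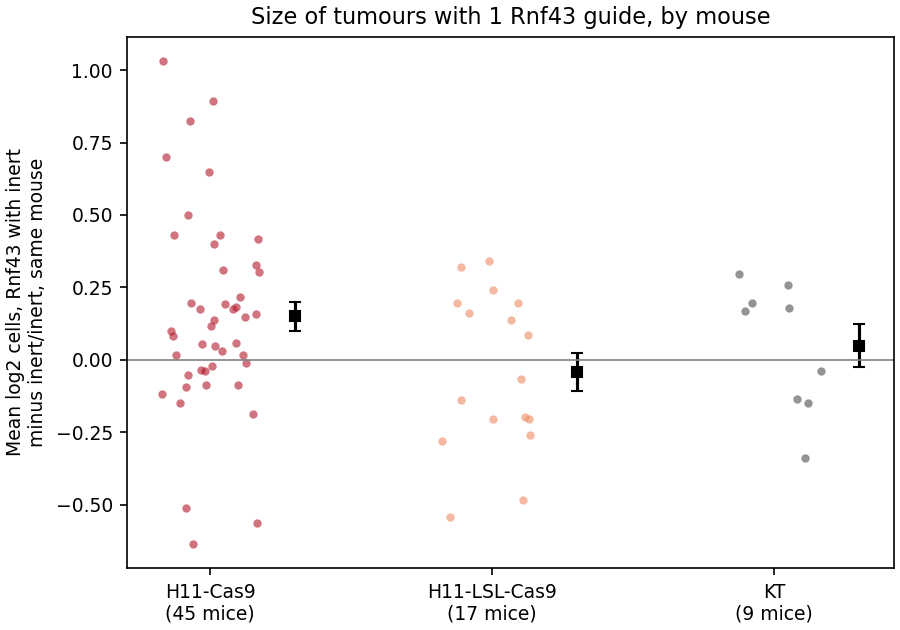
Each point is 1 mouse and shows the mean log2 cells of tumours with Rnf43 and an inert guide minus that mouse's inert/inert mean, by group. Black squares with bars are the mean ± SE over mice (0.15 ± 0.05 in H11-Cas9, -0.04 ± 0.07 in H11-LSL-Cas9, 0.05 ± 0.07 in KT), and the points of the 3 groups overlap.

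Set against KT mice, the H11-Cas9 effect did not pass the test. Against KT it was 0.10 ± 0.09 (permutation of mouse labels on the difference over its standard error, adjusted p = 0.382), and the difference of H11-LSL-Cas9 from H11-Cas9 was -0.19 ± 0.08 (permutation p = 0.0291, adjusted p = 0.0979), so neither passed. The difference from inert/inert within a mouse was also taken by spike-in total, without KT mice. Among the 25 H11-Cas9 mice near 100000 cells this difference was 0.20 (sign-flip permutation, adjusted p = 0.0150), and near 300000 cells it was 0.08 (adjusted p = 0.503). The call against inert/inert thus held in 1 of the 2 sets of mice.

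The difference passed in the upper part of the size distribution. At the 10th, 25th and 50th percentile of tumour size the H11-Cas9 difference was -0.00, 0.03 and 0.03 on the log2 scale. There 35.3%, 35.3% and 23.5% of genes passed as larger. The smallest tumour listed had a median of 54.4 cells over H11-Cas9 mice, where 1 read stood for a median of 7.96 cells. Sizes near this floor rest on few reads, which limits the differences that low percentiles can show. At the 75th percentile it was 0.21 ± 0.08 (above 0 in 29 of 45 mice, adjusted p = 0.0316, where 29.4% of genes passed as larger), and at the 90th it was 0.39 ± 0.12 (above 0 in 32, adjusted p = 0.00714, where 52.9% passed). The 90th percentile differed by -0.07 ± 0.16 in H11-LSL-Cas9 and by -0.01 ± 0.13 in KT. At the 95th percentile, which rests on few tumours in mice with a median of 24 inert/inert tumours, the differences were 0.67, 0.29 and 0.15 in H11-Cas9, H11-LSL-Cas9 and KT.

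**Figure D2:**
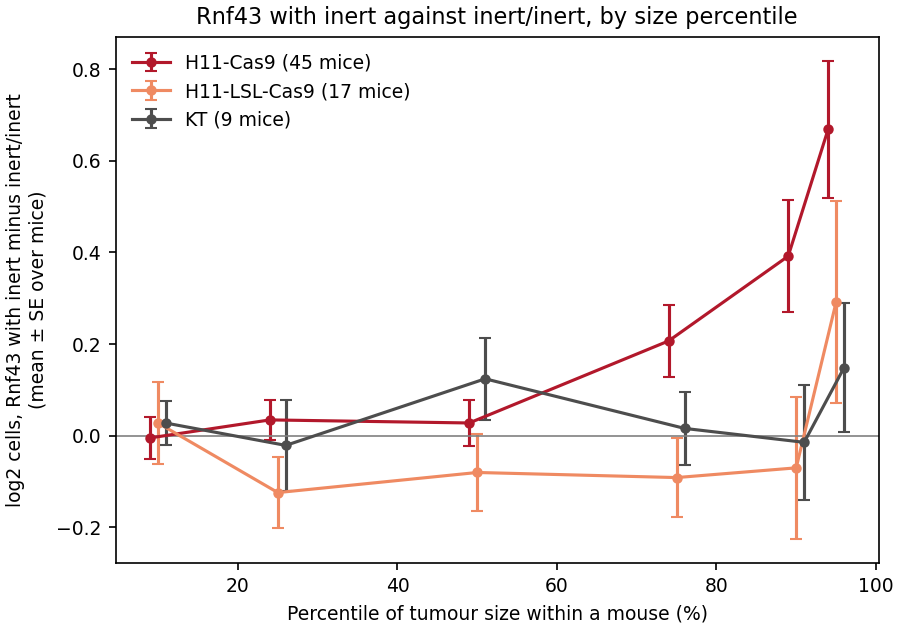
Points are the mean over mice, with SE bars, of the difference in log2 cells between tumours with Rnf43 and an inert guide and inert/inert tumours at the 10th, 25th, 50th, 75th, 90th and 95th percentile, joined by group and set slightly apart along the axis. The H11-Cas9 line lies near 0 up to the 50th percentile and reaches 0.39 at the 90th, where KT lies at -0.01.

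Counted as a share, tumours of at least 200 cells made up 42.9% of Rnf43 tumours and 41.8% of inert/inert tumours in the mean H11-Cas9 mouse, a difference of 1.07 ± 1.91 percentage points (adjusted p = 0.664). Tumours of at least 1000 cells, a limit chosen after the data were seen, made up 8.33% of Rnf43 tumours and 5.42% of inert/inert tumours, a difference of 2.91 ± 0.83 points. It was positive in 33 and negative in 10 of 45 mice (sign-flip permutation, adjusted p = 0.00287), and here too 64.7% of genes passed as higher. The same share differed by 0.98 ± 1.38 points in H11-LSL-Cas9 and by -0.62 ± 1.33 points in KT. KT tumours were larger, with 17.7% of inert/inert tumours past this limit in the mean mouse and an inert/inert geometric mean of 313 cells, against 188 in H11-Cas9. The limit thus cut unlike parts of the size distribution in these 2 groups. Against KT the H11-Cas9 difference was 3.53 ± 1.57 points (permutation p = 0.0441, adjusted p = 0.0833). In the 25 H11-Cas9 mice near 100000 cells of spike-in total, the difference in this share from inert/inert did not pass.

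Values with either guide and in either place lay close together. In H11-Cas9 mice the size difference from inert/inert was 0.12 ± 0.06 with guide V1 and 0.16 ± 0.06 with guide V2, and V1 minus V2 was -0.04 ± 0.07 (45 mice, adjusted p = 0.624). It was 0.14 ± 0.06 with Rnf43 in place 1 and 0.15 ± 0.07 in place 2. Tumours with both Rnf43 guides, 461 in H11-Cas9 mice, had a difference of 0.11 ± 0.07 (above 0 in 23 of 41 mice, adjusted p = 0.183), against 0.10 ± 0.08 in H11-LSL-Cas9 (16 mice) and 0.05 ± 0.08 in KT. In H11-Cas9 and in KT the values with 1 and with 2 Rnf43 guides lay within each other's errors. In H11-LSL-Cas9 the value with 1 guide was -0.04 ± 0.07, and its difference from that with 2 guides was not tested.

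The second comparison set tumours with Rnf43 and a partner targeted against inert/inert tumours. In H11-Cas9 mice 5 of 14 tested partners gave larger tumours and 0 gave smaller ones, where 36.5% of all gene pairs passed as larger and 0.962% as smaller. The 5 were the GTPase-activating proteins Nf1 and Rasa1, the genome guardian p53, the energy-sensing kinase Lkb1 and the histone methyltransferase Setd2. With Nf1 the difference ran from -0.57 over a median of 0.34 to 1.12 and was above 0 in 38 of 45 mice, with a mean of 0.33 ± 0.06 (adjusted p = 6.5e-05). With Rasa1 it ran from -0.44 over 0.33 to 0.94, above 0 in 36 mice, with a mean of 0.30 ± 0.05 (adjusted p = 6.5e-05).

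With p53 it ran from -0.25 over 0.29 to 1.86, above 0 in 38 mice, with a mean of 0.36 ± 0.06 (adjusted p = 6.5e-05). With Setd2 it ran from -0.29 over 0.18 to 2.09, above 0 in 32 mice (0.30 ± 0.08, adjusted p = 9.9e-05). With Lkb1 it spread most, from -1.40 over 0.16 to 1.53, above 0 in 29 mice (0.22 ± 0.08, adjusted p = 0.0189). Each of these 5 pairs had some mice below 0, and the pair with Lkb1 lay at 0.11 (adjusted p = 0.574) in the 20 mice near 300000 cells.

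The Wnt pathway partner Apc did not pass with Rnf43, at 0.10 ± 0.08 (above 0 in 25 of 45 mice, adjusted p = 0.298), and neither did the cell cycle brake Rb1 at 0.09 ± 0.06 nor Keap1, which holds down the oxidative stress factor NRF2, at -0.05 ± 0.06. The other tested partners were seen in fewer mice. The histone methyltransferases Kmt2a and Kmt2b lay at 0.02 ± 0.11 (27 mice) and 0.11 ± 0.25 (8), the histone acetyltransferase Kat7 at 0.08 ± 0.18 (10), and the L-type cyclins Ccnl1 and Ccnl2, which take part in RNA processing, at 0.04 ± 0.08 (24) and 0.07 ± 0.07 (43). The replication clamp Pcna lay at -0.48 ± 0.16 in 6 mice, below 0 in 5 of them (exact sign flips, adjusted p = 0.125). Meaf6, a subunit of histone acetyltransferase complexes, had enough tumours with Rnf43 in 1 H11-Cas9 mouse and was not tested.

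In H11-LSL-Cas9 mice 0 of 14 partners passed in either direction (1 at an unadjusted p under 0.05, with sign flips), where 2.88% of pairs passed as larger and 0.962% as smaller. The pair with Nf1 lay at 0.14 ± 0.06 there, above 0 in 14 of 17 mice, and the pair with Setd2 at 0.19 ± 0.10, also above 0 in 14. In KT mice 0 of 15 passed (1 at an unadjusted p under 0.05), where 0% of pairs passed as larger. Set against KT, the pairs with Nf1 (0.31 ± 0.08), Rasa1 (0.31 ± 0.08) and p53 (0.25 ± 0.07) passed as larger in H11-Cas9 (45 against 9 mice, permutation, adjusted p = 0.0156, 0.0150 and 0.0262), where 20.2% of pairs did.

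The third comparison asked what targeting Rnf43 added to a tumour in which the partner was already targeted. Size passed for 0 of 14 partners in H11-Cas9, 0 of 14 in H11-LSL-Cas9 and 0 of 15 in KT (1, 2 and 0 at an unadjusted p under 0.05, with sign flips). Over all steps that added any gene to any other, 9.36% passed as larger and 3.45% as smaller in H11-Cas9. These shares were 1.94% and 0.971% in H11-LSL-Cas9, and 0% as larger in KT. The median over the 14 partners in H11-Cas9 was -0.06, beside a median of -0.01 over all such steps, and 10 of the 14 lay below 0.

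Adding Rnf43 to Apc gave -0.06 ± 0.08 in H11-Cas9 mice, from -1.27 over -0.03 to 1.08, and was above 0 in 21 of 45, so that mice were split about evenly. Adding it to Nf1 gave -0.10 ± 0.05, from -0.70 over -0.08 to 0.41, and was below 0 in 27 of 45 (unadjusted sign-flip permutation p = 0.0377, adjusted p = 0.174). Adding it to Rasa1 gave 0.04 ± 0.05, to p53 0.07 ± 0.04, to Rb1 -0.07 ± 0.05, to Lkb1 -0.04 ± 0.10, to Keap1 -0.09 ± 0.06 and to Setd2 0.08 ± 0.06. None of these 6 passed. Among the partners with fewer tumours, the steps were -0.08 ± 0.12 for Kmt2a, -0.04 ± 0.34 for Kmt2b (6 mice), 0.05 ± 0.37 for Kat7 (8 mice), -0.19 ± 0.11 for Ccnl1, -0.09 ± 0.10 for Ccnl2 and -0.25 ± 0.52 for Pcna (4 mice), with errors from 0.10 to 0.52.

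In H11-LSL-Cas9 mice the steps past an unadjusted p under 0.05 were those of Rnf43 added to Setd2, at 0.22 ± 0.09 (above 0 in 15 of 18 mice, adjusted p = 0.205), and to Pcna, at 0.35 ± 0.13 (above 0 in 10 of 14, adjusted p = 0.205). With Kmt2b the step was -0.64 ± 0.25, below 0 in 5 of 5 mice (exact sign flips, adjusted p = 0.368), a number of mice for which the smallest p is 0.0625. In the share of tumours of at least 1000 cells, adding Rnf43 passed for 0 partners in H11-Cas9 (2 at an unadjusted p under 0.05 with sign flips), where 3.45% of steps passed as higher and 0.985% as lower. The 2 were opposite in sign, -2.31 ± 0.81 points for Nf1 (adjusted p = 0.0941) and 2.10 ± 0.77 points for p53 (adjusted p = 0.109).

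The reverse step, adding a partner to Rnf43, passed for 4 of 14 partners in H11-Cas9 mice, 3 larger and 1 smaller, where 9.36% of all steps passed as larger and 3.45% as smaller. Adding p53 gave 0.21 ± 0.04, from -0.40 over 0.20 to 0.97, above 0 in 33 of 45 mice (adjusted p = 0.000580). Adding Nf1 gave 0.18 ± 0.05, from -0.57 over 0.16 to 1.16, above 0 in 35 (adjusted p = 0.00328), and adding Rasa1 gave 0.15 ± 0.05, from -0.54 over 0.17 to 0.98, above 0 in 28 (adjusted p = 0.0399). Tumours with Rnf43 were thus larger when p53, Nf1 or Rasa1 was targeted too, in most mice. Adding Keap1 gave smaller tumours, at -0.20 ± 0.05, from -1.16 over -0.20 to 0.76, and below 0 in 32 of 45 mice (adjusted p = 0.00522).

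Adding Apc to Rnf43 gave -0.05 ± 0.07, adding Rb1 -0.06 ± 0.05, adding Lkb1 0.07 ± 0.07 and adding Setd2 0.15 ± 0.06 (above 0 in 32 of 45 mice, adjusted p = 0.0838), and none of these passed. Among the rest, the values were -0.11 for Kmt2a, -0.06 for Kmt2b, 0.01 for Kat7, -0.03 for Ccnl1, -0.08 for Ccnl2 and -0.59 ± 0.22 for Pcna (6 mice, exact sign flips, adjusted p = 0.227). Near 100000 cells of spike-in total, p53 alone passed (0.26, adjusted p = 0.0134), with Nf1 at 0.17, Rasa1 at 0.12 and Keap1 at -0.24. Near 300000 cells none of the 4 passed, with p53 at 0.14, Nf1 at 0.20, Rasa1 at 0.17 and Keap1 at -0.16, so the directions were the same in both sets of mice. In H11-LSL-Cas9 0 of 14 passed (2 at an unadjusted p under 0.05 with sign flips), with Nf1 at 0.16 ± 0.06, p53 at 0.13 ± 0.07, Rasa1 at 0.09 ± 0.07 and Keap1 at -0.00 ± 0.10. In KT the step was -0.03 for Nf1, 0.06 for p53, -0.07 for Rasa1 and -0.03 for Keap1. Against KT none of the 4 H11-Cas9 steps passed (Nf1 0.21 ± 0.07 and Rasa1 0.21 ± 0.06, permutation, adjusted p = 0.0689 and 0.0803), where 1.97% of all steps passed as larger and 3.94% as smaller. Among tumours of at least 500 cells, the H11-Cas9 step turned to -0.065 for Rasa1 and 0.14 for Keap1, and neither passed.

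**Figure D3:**
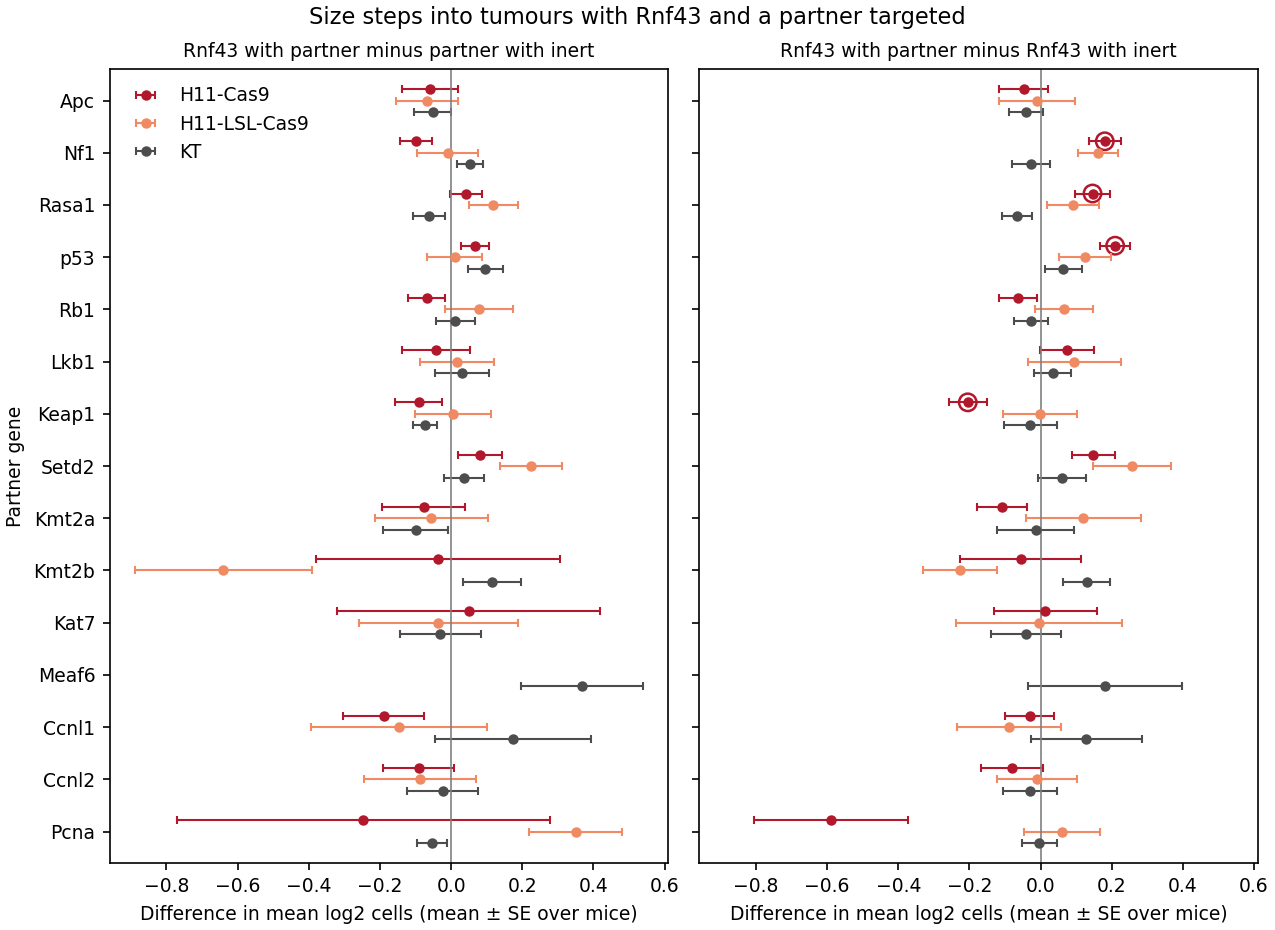
Each row is a partner, and points with SE bars give the mean over mice of the difference in mean log2 cells, for H11-Cas9 above H11-LSL-Cas9 above KT. The left panel shows what Rnf43 added to the partner and the right panel what the partner added to Rnf43. Rings mark values past an adjusted p of 0.05, of which the left panel has 0 and the right panel 4, all in H11-Cas9.

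An interaction was taken as the effect of the pair minus the sum of both single effects, so that 0 means that the effects on log2 size add. In H11-Cas9 mice its mean was below 0 for all 14 tested partners of Rnf43 and passed for 3, where 24.2% of all pairs passed as lower. The 3 were Nf1 at -0.25 ± 0.07, from -1.39 over -0.20 to 0.64 and below 0 in 31 of 45 mice (adjusted p = 0.0120), Rb1 at -0.22 ± 0.07, from -1.45 over -0.23 to 0.63 and below 0 in 33 (adjusted p = 0.0120), and Keap1 at -0.24 ± 0.09, from -1.88 over -0.13 to 0.90 and below 0 in 25 (adjusted p = 0.0382). The 14 values share the tumours with Rnf43 and inert and the inert/inert tumours of each mouse, so they are not 14 separate observations of 1 direction. Their median was -0.22, beside a median of -0.21 over all pairs tested.

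The interaction with Apc was -0.21 ± 0.09 (adjusted p = 0.0953), with Rasa1 -0.11, with p53 -0.08, with Lkb1 -0.19 and with Setd2 -0.07. It was -0.21 with Kmt2a, -0.24 with Kmt2b, -0.03 with Kat7, -0.26 with Ccnl1, -0.25 with Ccnl2 and -0.31 with Pcna, with errors from 0.11 for Kmt2a and Ccnl1 to 0.61 for Pcna. The Pcna mean rested on 4 mice, 3 of them above 0, with a median of 0.23 and 1 mouse at -2.12. The interaction with Kat7 was above 0 in 4 of 8 mice, with a median of 0.01, and that with Kmt2b in 3 of 6. In H11-LSL-Cas9 the median over 14 partners was 0.04 and 0 passed (2 at an unadjusted p under 0.05 with sign flips), where 0% of pairs did, and Nf1, Rb1 and Keap1 lay at 0.07, 0.10 and 0.04. In KT the median over 15 was -0.04 and 0 passed (0 at an unadjusted p under 0.05 with exact sign flips), where 0% of pairs did, with these 3 at 0.00, -0.04 and -0.12. Against KT 0 of 14 H11-Cas9 interactions passed (Nf1 -0.25 ± 0.10, permutation p = 0.0242, adjusted p = 0.259), where 1.01% of pairs passed as higher and 1.01% as lower. Within H11-Cas9 mice Nf1, Rb1 and Keap1 lay at -0.34, -0.25 and -0.35 near 100000 cells and at -0.13, -0.18 and -0.10 near 300000 cells. Of these, Nf1 near 100000 cells passed (adjusted p = 0.0330), and the others did not.

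**Figure D4:**
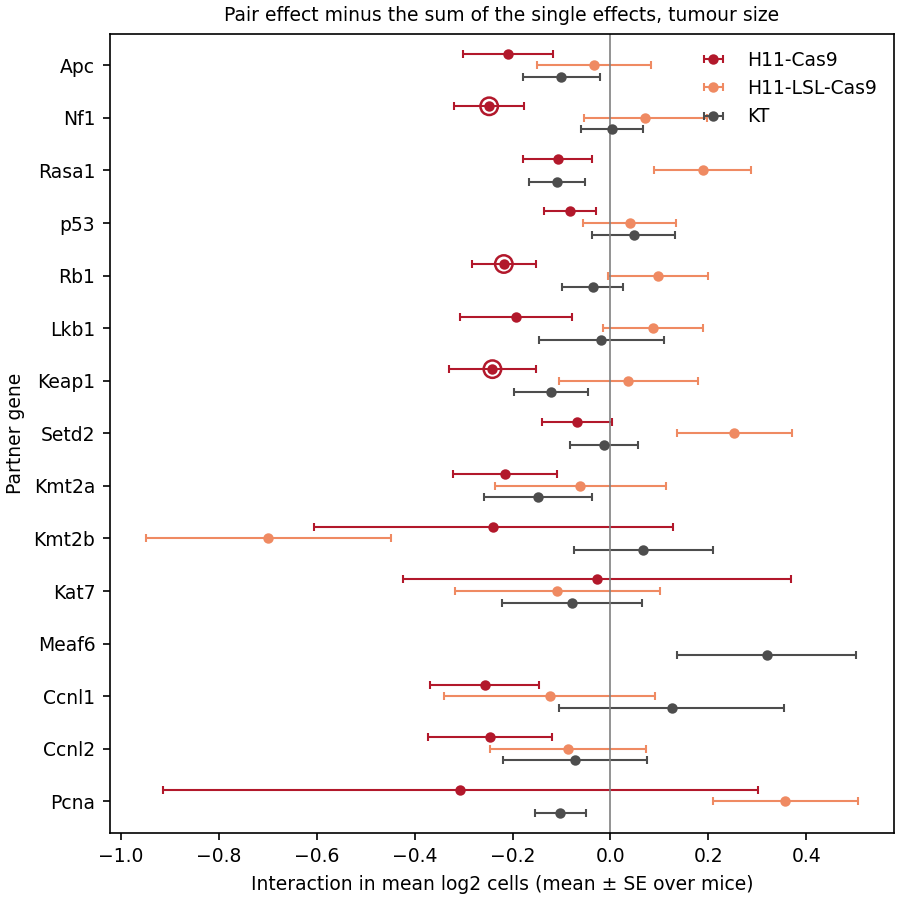
Each row is a partner of Rnf43, and points with SE bars give the mean over mice of the pair effect minus the sum of the single effects on log2 cells, for H11-Cas9 above H11-LSL-Cas9 above KT. Every H11-Cas9 point lies below 0, and rings mark the 3 past an adjusted p of 0.05 (Nf1, Rb1 and Keap1).

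Tumour number was measured as log2 of the tumours of a genotype over the number with inert/inert in that mouse. KT mice give the share of each genotype in the virus pool, so Cas9 mice were set against KT mice. For Rnf43 with inert, this number ran from 0.58 over 1.22 to 2.73 in H11-Cas9 mice, from 0.70 over 1.14 to 1.63 in 17 H11-LSL-Cas9 mice, and from 1.19 over 1.33 to 1.45 in KT mice. In 31 of 45 H11-Cas9 mice it was below the KT median. The difference from KT was -0.15 ± 0.07 in H11-Cas9, a fold of 0.902 (permutation, adjusted p = 0.0419), where 52.9% of genes passed as fewer. It was -0.17 ± 0.08 in H11-LSL-Cas9 (permutation, adjusted p = 0.0900). The H11-Cas9 call depended on the setting, since a permutation of the unscaled difference gave an adjusted p of 0.329, and leaving out 1 KT mouse at a time gave -0.17 to -0.13 with adjusted p from 0.0250 to 0.0694, above 0.05 without KT replicate 1, 3, 4, 5 or 8. Within the spike-in totals it was -0.19 near 100000 cells and -0.09 near 300000 cells, neither of which passed (permutation, adjusted p = 0.123 and 0.358).

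The 2 guides differed in number in H11-Cas9 at an unadjusted p. With V2 the number against KT was -0.23 ± 0.07 in H11-Cas9 (permutation p = 0.00578) and -0.23 ± 0.08 in H11-LSL-Cas9 (p = 0.0153, permutation). With V1 it was -0.06 ± 0.08 in H11-Cas9 (p = 0.512, permutation) and -0.09 ± 0.11 in H11-LSL-Cas9 (p = 0.413, permutation). Tested directly, the ratio of V1 to V2 tumours differed from KT by 0.17 ± 0.08 in H11-Cas9 (p = 0.0424, permutation, a test added after the data were seen) and by 0.14 ± 0.11 in H11-LSL-Cas9 (p = 0.229, permutation). Only V2 passed 0.05 on its own in each group, and these p-values are unadjusted.

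Tumours with Rnf43 and a partner differed widely in number between partners. Against KT, 1 of 15 pairs was more frequent and 7 were less frequent in H11-Cas9, where 14% of pairs passed as more and 57.4% as fewer. The pair with Nf1 had 0.32 ± 0.07, from 0.44 over 1.02 to 2.73 in H11-Cas9 mice and from 0.54 over 0.77 to 0.88 in KT mice, and 34 of 45 H11-Cas9 mice lay above the KT median (permutation, adjusted p = 0.00115). It was 0.28 near 100000 cells of spike-in total, where it did not pass (permutation, adjusted p = 0.0607), and 0.38 near 300000 cells. The pair with Apc had -0.71 ± 0.07, from -1.47 over -0.52 to 0.63 in H11-Cas9 and from 0.01 over 0.19 to 0.34 in KT, and 2 of 45 H11-Cas9 mice lay above the KT median. The pair with Lkb1 had -1.27 ± 0.09, from -1.83 over -0.50 to 0.45 in H11-Cas9 and from 0.65 over 0.72 to 0.80 in KT, so that these groups did not overlap. The pair with Pcna, needed for DNA replication, had -4.21 ± 0.16, from -5.93 over -3.46 to -1.34 in H11-Cas9 and from 0.43 over 0.67 to 0.74 in KT, also without overlap. In tumours this was 92 in all H11-Cas9 mice against 2279 in KT mice.

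The other pairs past the threshold were those with Keap1 (-0.91 ± 0.08), Setd2 (-0.34 ± 0.06), Kmt2b (-1.17 ± 0.19) and Kat7 (-0.75 ± 0.17), all fewer. Near 300000 cells of spike-in total, Setd2 lay at -0.14 and Kat7 at -0.36 and neither passed (permutation, adjusted p = 0.191 and 0.168), against -0.50 and -1.07 near 100000 cells. Pairs with Rasa1 (0.11), p53 (0.10), Rb1 (-0.04), Kmt2a (-0.24), Meaf6 (-0.31), Ccnl1 (0.09) and Ccnl2 (0.11) did not pass. In H11-LSL-Cas9 5 pairs were fewer and 0 more, where 27.9% of pairs passed as fewer and 12.5% as more. These were Apc (-0.35 ± 0.13), Lkb1 (-0.47 ± 0.09), Keap1 (-0.37 ± 0.10), Kat7 (-0.76 ± 0.21) and Pcna (-1.74 ± 0.17). A mean of log2 numbers can be shifted up or down where mice hold few tumours of a genotype, which touches the partners with 1 guide. Summed over mice, with no test, the H11-Cas9 values over KT were -1.12 for Kmt2b, -0.75 for Kat7, -0.14 for Kmt2a, -0.47 for Meaf6, 0.06 for Ccnl1 and 0.09 for Ccnl2, in the same directions.

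Targeting Rnf43 on top of the partner did not change the number past the test for any of 15 partners, in H11-Cas9 or in H11-LSL-Cas9 (1 and 2 at an unadjusted p under 0.05, with permutations). Over all steps, 22.8% passed as more and 33.8% as fewer in H11-Cas9, and 10.3% and 12.9% in H11-LSL-Cas9. The H11-Cas9 values lay between -0.20 (Kat7) and 0.27 (Meaf6), with -0.04 ± 0.09 for Apc, -0.09 ± 0.07 for Nf1, -0.09 ± 0.07 for Rasa1, -0.12 ± 0.06 for p53 (permutation p = 0.0410, adjusted p = 0.0693), 0.01 ± 0.07 for Rb1, -0.08 ± 0.08 for Lkb1, 0.06 ± 0.07 for Keap1, -0.02 ± 0.06 for Setd2 and -0.05 ± 0.13 for Pcna. The steps were -0.07 for Kmt2a, -0.11 for Kmt2b, 0.18 for Ccnl1 and 0.23 for Ccnl2, with summed values of -0.01, -0.07, 0.21 and 0.16. In H11-LSL-Cas9 the steps past an unadjusted p under 0.05 were those onto Rb1 at 0.23 ± 0.09 (adjusted p = 0.0570) and onto Kat7 at -0.62 ± 0.26 (adjusted p = 0.102).

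Adding a partner to Rnf43 changed the number for 10 of 15 partners in H11-Cas9 (3 more, 7 fewer) and for 4 of 15 in H11-LSL-Cas9 (3 more, 1 fewer), beside the shares over all steps of 22.8% more and 33.8% fewer in H11-Cas9, and 10.3% more and 12.9% fewer in H11-LSL-Cas9. In H11-Cas9, Nf1 (0.47 ± 0.06), Rasa1 (0.26 ± 0.06) and p53 (0.25 ± 0.06) gave more tumours, and Apc (-0.56 ± 0.07), Lkb1 (-1.12 ± 0.08), Keap1 (-0.77 ± 0.07), Setd2 (-0.19 ± 0.06), Kmt2b (-1.02 ± 0.17), Kat7 (-0.60 ± 0.16) and Pcna (-4.06 ± 0.15) gave fewer (permutation, adjusted p from 5.67e-05 to 0.0287). In H11-LSL-Cas9, Nf1 (0.31 ± 0.08), Rasa1 (0.25 ± 0.09) and p53 (0.27 ± 0.05) gave more and Pcna (-1.57 ± 0.15) gave fewer. Within the spike-in totals, adding Setd2 gave -0.30 near 100000 cells and -0.048 near 300000 cells in H11-Cas9, and neither passed (permutation, adjusted p = 0.0712 and 0.620). Adding p53 gave 0.24 and 0.26 there, and neither passed (permutation, adjusted p = 0.0822 and 0.101). Rasa1 did not pass near 100000 cells (0.25, permutation, adjusted p = 0.0663), nor Kat7 near 300000 cells (-0.27, permutation, adjusted p = 0.371, against -0.87 near 100000 cells). Interactions in number passed for 0 of 15 partners in both groups (2 and 3 at an unadjusted p under 0.05, with permutations). Over all pairs, 11.8% passed as more and 0.735% as fewer in H11-Cas9, and 0% either way in H11-LSL-Cas9. Those of H11-Cas9 lay between -0.06 (Kat7) and 0.42 (Meaf6).

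**Figure D5:**
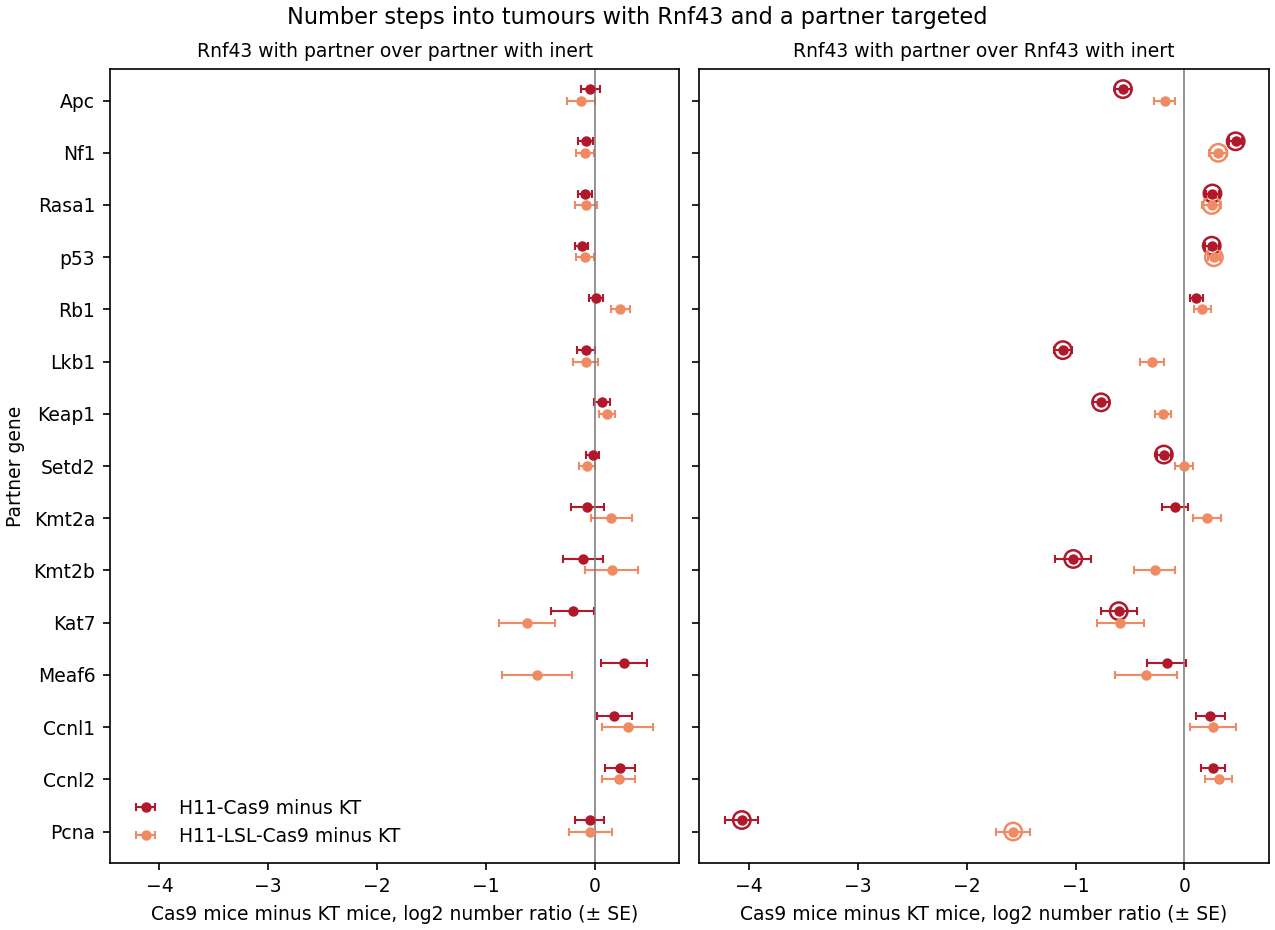
Each row is a partner, and points with SE bars give the log2 number ratio in Cas9 mice minus that in KT mice, for H11-Cas9 above H11-LSL-Cas9. The left panel shows what Rnf43 added to the partner, between -0.62 and 0.30, and the right panel what the partner added to Rnf43, down to -4.06 for Pcna. Rings mark values past an adjusted p of 0.05, of which the left panel has 0.

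The 2 Cas9 groups were set against each other last. The number of tumours with Rnf43 and inert differed by -0.02 ± 0.09 (H11-LSL-Cas9 minus H11-Cas9, permutation, adjusted p = 0.893). Of the 15 pairs with Rnf43, 5 were more frequent in H11-LSL-Cas9, where 44.1% of pairs passed as more. They were Pcna (2.47 ± 0.23), Lkb1 (0.80 ± 0.12), Kmt2b (0.73 ± 0.24), Keap1 (0.55 ± 0.11) and Apc (0.36 ± 0.13), with adjusted p from 6.48e-05 to 0.0259 by permutation. These are pairs that were less frequent than in KT in H11-Cas9, and their deficit was smaller in H11-LSL-Cas9. The same 5 partners differed in the step from Rnf43 to the pair, where 21% of steps passed as more. All H11-LSL-Cas9 mice were near 300000 cells of spike-in total. Against the 20 H11-Cas9 mice near that total, a comparison added after the data were seen, the pairs with Pcna (2.18), Lkb1 (0.66) and Keap1 (0.36) passed, and those with Apc (0.32, permutation, adjusted p = 0.0820) and Kmt2b (0.49, permutation, adjusted p = 0.160) did not. In size, 0 of 14 pairs, steps or interactions with Rnf43 differed between the Cas9 groups after adjustment (permutation, with 4 pairs, 1 step and 4 interactions at an unadjusted p under 0.05). Few passed for any gene: 0% of all pairs as larger and 2.04% as smaller, 0% and 1.03% of steps, and 1.04% and 0% of interactions.

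Among the reported genes beside an inert guide, the patterns nearest to Rnf43 over 4 means (size and number in both Cas9 groups) were those of Ccnl2, Rb1 and Ccnl1, with root mean square differences of 0.06, 0.06 and 0.08 on the log2 scale. Those of Apc, its pathway partner, differed by 0.26, with a number of -0.67 in H11-Cas9 against -0.15 for Rnf43. This ranking was not tested, and Kmt2a (0.09) and Setd2 (0.10) followed closely. The numbers in H11-LSL-Cas9 against KT had an error of 0.18 for both Ccnl1 and Ccnl2, larger than the differences that set the order.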

How the data were processed

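The deposited table gives 1 entry per barcode. Its reads are counts without normalization, per the file headers, and its cells are a signal, which the authors estimated with spike-in barcodes and which equals the reads times 1 factor per mouse. Neither headers nor labels name an aligner or filter. Per the labels' protocols, 32 µg of lung DNA was amplified per mouse.

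Guide orders and the guides of each gene were pooled, and the 5 safe, NT and EGFP guides were inert. A genotype needed at least 5 tumours in a mouse and 3 mice to be tested. Within-mouse size differences were given 2-sided sign-flip tests (exact up to 16 mice, otherwise 100000 resamples), and groups were compared by 2-sided permutation of mouse labels on the difference over its standard error (100000 resamples), with 0.5 added to tumour numbers and at least 5 inert/inert tumours required. With 9 KT mice exact sign flips cannot go below 0.00391. Benjamini-Hochberg adjustment ran over all 17 genes, all pairs or all steps of a kind, with a threshold of 0.05. The text reports 15 partners, and some results are not reported here. The members, lists and tests were chosen with earlier results of these data known. Separate mice were replicates, and their number, with the tumours per mouse, limits the precision. Scripts were tested on simulated data. Python 3.11.15, numpy 2.4.6, pandas 2.3.3 and matplotlib 3.10.9 were used. Alternatives covered minimum sizes, percentiles, batches, guides, places and leaving out mice.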

Additional observations from a re-analysis of the deposited data

Results flagged for a closer look

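In the KT mice, where no guide can cut, replicate 5 stood apart in the step from a partner to the pair with Rnf43. For Setd2 it lay at 0.42 on the log2 size scale while the other 8 KT mice lay from -0.15 to 0.12, and for Kmt2a it lay at 0.52 while the others lay from -0.44 up to just below 0. Of 45 sets of such values 2 stood out, and chance singles out about 1 in 20.

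The number of tumours with Rnf43 and a partner differed between H11-LSL-Cas9 and H11-Cas9 mice for 5 partners. The difference, H11-LSL-Cas9 minus H11-Cas9, was 0.36 for Apc, 0.80 for Lkb1, 0.55 for Keap1, 0.73 for Kmt2b and 2.47 for Pcna. In the step from Rnf43 with inert to the pair it was 0.38, 0.82, 0.57, 0.75 and 2.49 for the same partners in that order. All 20 H11-LSL-Cas9 mice but only 20 of 45 H11-Cas9 mice were near 300000 cells of spike-in total. Among mice near that total the pair difference was 0.32 for Apc, 0.66 for Lkb1, 0.36 for Keap1, 0.49 for Kmt2b and 2.18 for Pcna, and those for Apc and Kmt2b did not pass. The groups also differ in the letters of the mouse names, which cannot be told apart from the genotype.

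Constructs with the same Rnf43 guide in both places, which no comparison used, held 247 tumours in KT mice. Their mean log2 size was -0.99 ± 0.16 relative to inert/inert tumours, against -0.27 ± 0.08 for constructs with the same inert guide in both places (692 tumours). The difference between these constructs was -0.14 ± 0.50 in H11-Cas9, below 0 in 3 of 5 mice (exact sign flips, p = 0.75), and 0.13 in the 1 H11-LSL-Cas9 mouse with enough tumours. In KT mice, which have no Cas9, it was -0.71, below 0 in 9 of 9 mice (exact sign flips, p = 0.00391, the smallest that 9 mice allow).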

How the results depend on the processing

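The counts in this section are calls among the partners of Rnf43. The shares over all pairs or steps were not computed in these other settings, so the counts show nothing particular to Rnf43. With tumours of at least 200 cells, 3 Rnf43 pairs and 1 step from Rnf43 to a pair passed in size in H11-LSL-Cas9, and the pair with Lkb1 turned to 0.80. There, adding Rnf43 passed for 2 partners in number in H11-Cas9, with Pcna turned to 0.58, number interactions passed for 1 partner in H11-Cas9 and for 4 with H11-LSL-Cas9, and Rnf43 with inert reached -0.51 in number in H11-LSL-Cas9 (permutation, adjusted p = 0.00350). With at least 500 cells, H11-Cas9 size calls were 1 for pairs, 1 for adding Rnf43, 1 for adding a partner (Rasa1 -0.065, Keap1 0.14) and 0 for interactions. Size interactions in H11-Cas9 numbered 6 at the 90th percentile, 9 with same-guide constructs kept, 6 with LA mice, 1 near 100000 cells, 0 near 300000 cells, 1 with V1 and 0 with place 2.

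Adding a partner to Rnf43 passed in size in H11-Cas9 for 1 near 100000 cells, 0 near 300000 cells, 1 with V2 and 0 with place 1, and in H11-LSL-Cas9 for 1 with place 2. Adding Rnf43 passed in size in H11-Cas9 for 1 with place 1 (lower) and 1 with place 2 (higher). The size of Rnf43 with inert in H11-Cas9 was 0.081 near 300000 cells (adjusted p = 0.503) and 0.12 with V1 (adjusted p = 0.0624). At least 10 tumours per mouse gave 1 pair in size in H11-LSL-Cas9.

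The number of Rnf43 with inert in H11-Cas9 lost its call under plain permutation (-0.15), with same-guide constructs kept (-0.12), with NE as inert (-0.12), near 100000 cells (-0.19), near 300000 cells (-0.093), with LA mice (-0.17), V1 (-0.058) and place 2 (-0.060). In H11-LSL-Cas9 V2 gave -0.23 (permutation, adjusted p = 0.0434). Adding Rnf43 passed in number in H11-LSL-Cas9 for 1 partner with a pseudocount of 1, same-guide constructs kept, NE as inert, V1 or place 2, and in H11-Cas9 for 1 with V2 and 3 with place 1, where Pcna turned to 0.54. Number interactions in H11-Cas9 numbered 2 with place 1. Adding a partner passed in number in H11-Cas9 for 6 with LA mice. In H11-LSL-Cas9 it passed for 2 near 300000 cells, 2 with V1 and 1 with place 1. Pairs fewer in H11-LSL-Cas9 numbered 2 near 300000 cells.

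Without 1 KT mouse at a time, the number of Rnf43 with inert was -0.17 to -0.13 in H11-Cas9, and adding Rnf43 passed for 0 to 1 partner in either Cas9 group. Adding a partner passed for 3 to 6 in H11-LSL-Cas9. In settings chosen after the data were seen, the share of tumours of at least 1000 cells differed in H11-Cas9 by 2.91 points, by 3.38 near 300000 cells, by 3.00 with V1 and by 2.79 with V2. These 4 values passed, and the share did not pass in the 25 H11-Cas9 mice near 100000 cells. Between the Cas9 groups, 3 pairs differed in number near 300000 cells. The causes of these changes were not tested. No paired analysis was possible because replicate numbers follow accession order and pair no mice.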
